A study of Mus musculus with 12 samples.

Results

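The genes described here are 10 members of the fibroblast growth factor (FGF) pathway, picked by symbol from the 27179 genes of a deposited count table. They are the receptors Fgfr1, Fgfr2 and Fgfr3, the ligands Fgf2 and Fgf10, the Sprouty genes Spry1, Spry2 and Spry4, and the ETS transcription factor genes Etv4 and Etv5. All 10 passed the filter on low counts that left 14903 genes to be tested. Fgf10 passed it only through basal cells labelled as knockout, the group where it was highest. The study asked how RNA levels differ between mammary epithelial cells of female mice with a conditional deletion of Foxp1, a forkhead transcription factor, and those of floxed controls. There were 3 libraries in each of 4 groups. Luminal knockout-labelled and basal knockout-labelled cells came from mice of the strain MMTV-cre/Foxp1(fl/fl), and luminal and basal control cells from Foxp1(fl/fl) mice. Both genotypes carry the floxed allele, and the labels give only the knockouts the Cre transgene, which the mouse mammary tumour virus promoter drives, so the effects of Cre and of the deletion cannot be told apart. That promoter is also active in some tissues other than mammary epithelium. The labels give neither the ages of the mice nor the way the cells were separated.

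FGF ligands bind receptor tyrosine kinases together with heparan sulphate, and the receptors signal through adaptor proteins to the RAS and MAP kinase cascade. Sprouty proteins restrain that cascade and are themselves induced by it, and Etv4 and Etv5 are ETS factors whose transcription follows FGF signalling in many embryonic tissues. In the mouse mammary gland, Fgf10 made by the stroma and its epithelial receptor Fgfr2, in the isoform that binds Fgf10, are needed for most of the first buds of the gland, and Fgfr2 and Fgfr1 support later growth of the ducts. Gene counts do not separate the isoforms of a receptor.

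Depth was similar among libraries, with 9769361 to 11133908 counts except for 15449513 in luminal knockout-labelled replicate 3. Foxp1 counts did not fall in the libraries labelled as knockout, and they rose in the luminal ones. Luminal knockout-labelled replicates 1 to 3 had 161, 150 and 155 CPM of Foxp1, where CPM are counts scaled to the size of the library, whereas luminal controls had 82.3, 62.0 and 78.2 CPM. Basal knockout-labelled libraries had 212, 193 and 284 CPM, whereas basal controls had 221, 213 and 160 CPM. The luminal log2 fold change of Foxp1 was 1.07 (SE 0.19, edgeR adjusted p = 0.0161). That call was lost without luminal knockout-labelled replicate 2 or 3 (adjusted p = 0.0524 and 0.0540) or luminal control replicate 2 (adjusted p = 0.0746). The basal log2 fold change was 0.22 (SE 0.19, adjusted p = 0.926). The count takes in reads outside the deleted exons, so it is only a partial check, and the direction of each result rests on the labels. The summed level of 10 basal and myoepithelial markers was 16130 to 23100 CPM in basal libraries and 177 to 759 CPM in luminal ones. That of 12 luminal markers was 10693 to 21882 CPM in luminal libraries and 1277 to 2630 CPM in basal ones. Luminal libraries also held salivary gland transcripts, whose summed level over 4 markers was 16724 to 66942 CPM in knockout-labelled and 7992 to 84865 CPM in control libraries. Basal libraries held less, at 135 to 3291 and 725 to 2885 CPM. Single markers differed with the knockout label. Of 3 tested, 1 was called higher and 1 lower in luminal cells (log2 fold changes from -9.47 to 9.23), where 3.03% of all tested genes were called. In basal cells 1 was called lower (-5.89), where 0.671% were called.

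Because the deleted gene encodes a forkhead factor, the 250 bases before the annotated starts of the members were searched on both strands for the forkhead letters TGTTTAC and for the ETS letters CCGGAA, 2 motifs that can share 1 base at an edge. Matches are given for 9 RefSeq promoters of 7 members, on build GRCm38.p6, namely Fgfr2, Fgfr3, Fgf2, Fgf10, Spry1, Spry2 and Etv5. Promoters of Spry4, Fgfr1 and Etv4 were left out of the search, so the counts of matches do not cover all members. The forkhead letters stood in 2 of the 9, against 3.17% of all 32851 promoters, and the ETS letters in 0 of the 9, against 12.03% of all promoters. The Fgf10 and Etv5 promoters are shown because they hold the forkhead letters, in capitals below, and the Spry1 promoter because Spry1 came nearest to the threshold among the members in luminal cells; it holds neither motif. The letters lay 11 to 5 bases before the start of Fgf10 and, as their reverse complement, 183 to 177 bases before the outer start of Etv5. A match of letters is a description of the sequence and does not show that a factor binds there.
Fgf10, chr13:118714449-118714698, plus strand: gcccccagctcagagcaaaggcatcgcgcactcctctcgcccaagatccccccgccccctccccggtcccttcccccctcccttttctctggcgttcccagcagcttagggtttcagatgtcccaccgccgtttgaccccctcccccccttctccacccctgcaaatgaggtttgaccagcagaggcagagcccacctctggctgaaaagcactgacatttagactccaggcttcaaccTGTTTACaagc
Etv5, chr16:22439571-22439820, minus strand: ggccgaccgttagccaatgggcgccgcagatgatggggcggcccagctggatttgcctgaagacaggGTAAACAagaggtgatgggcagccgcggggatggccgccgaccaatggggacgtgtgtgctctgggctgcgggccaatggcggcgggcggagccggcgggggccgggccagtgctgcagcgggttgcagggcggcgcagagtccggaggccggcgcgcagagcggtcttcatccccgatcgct
Spry1, chr3:37639697-37639946, plus strand: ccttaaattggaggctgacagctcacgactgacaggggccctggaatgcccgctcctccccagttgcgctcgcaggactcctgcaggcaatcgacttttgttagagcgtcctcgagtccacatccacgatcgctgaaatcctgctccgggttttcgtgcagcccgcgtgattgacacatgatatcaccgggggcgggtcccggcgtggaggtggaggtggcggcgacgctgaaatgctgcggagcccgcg

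Set per unit of gene length, as CPM per kilobase (RPKM), the same 3 genes led the members in every group. In luminal cells Spry2 averaged 72.2 ± 21.9 RPKM in knockout-labelled and 93.7 ± 11.1 RPKM in control libraries (SD, n = 3 each). Fgfr1 averaged 70.8 ± 18.6 and 70.3 ± 29.0 RPKM in the same 2 luminal groups, and Fgfr2 averaged 67.1 ± 14.0 and 55.4 ± 16.8 RPKM. Neighbours in that order overlapped, so the luminal order of the 3 is not set by these libraries. In basal cells Fgfr1 stood alone at the top, at 190 ± 53.3 RPKM in knockout-labelled and 155 ± 20.7 RPKM in control libraries, with every library above every Spry2 value of its group. Spry2 followed at 99.8 ± 44.0 and 62.9 ± 8.63 RPKM in the same 2 basal groups, and Fgfr2 at 65.3 ± 22.3 and 49.3 ± 17.3 RPKM, with ranges that overlap those of Spry2. At the other end, Fgf10 had the lowest mean in every group, at 0.0798, 0.0214, 1.72 and 0.0561 RPKM in luminal knockout-labelled, luminal control, basal knockout-labelled and basal control cells. Etv4, Etv5 and Spry4 lay between 1.79 and 5.05 RPKM in luminal groups and between 9.60 and 27.1 RPKM in basal groups.

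**Figure D1:**
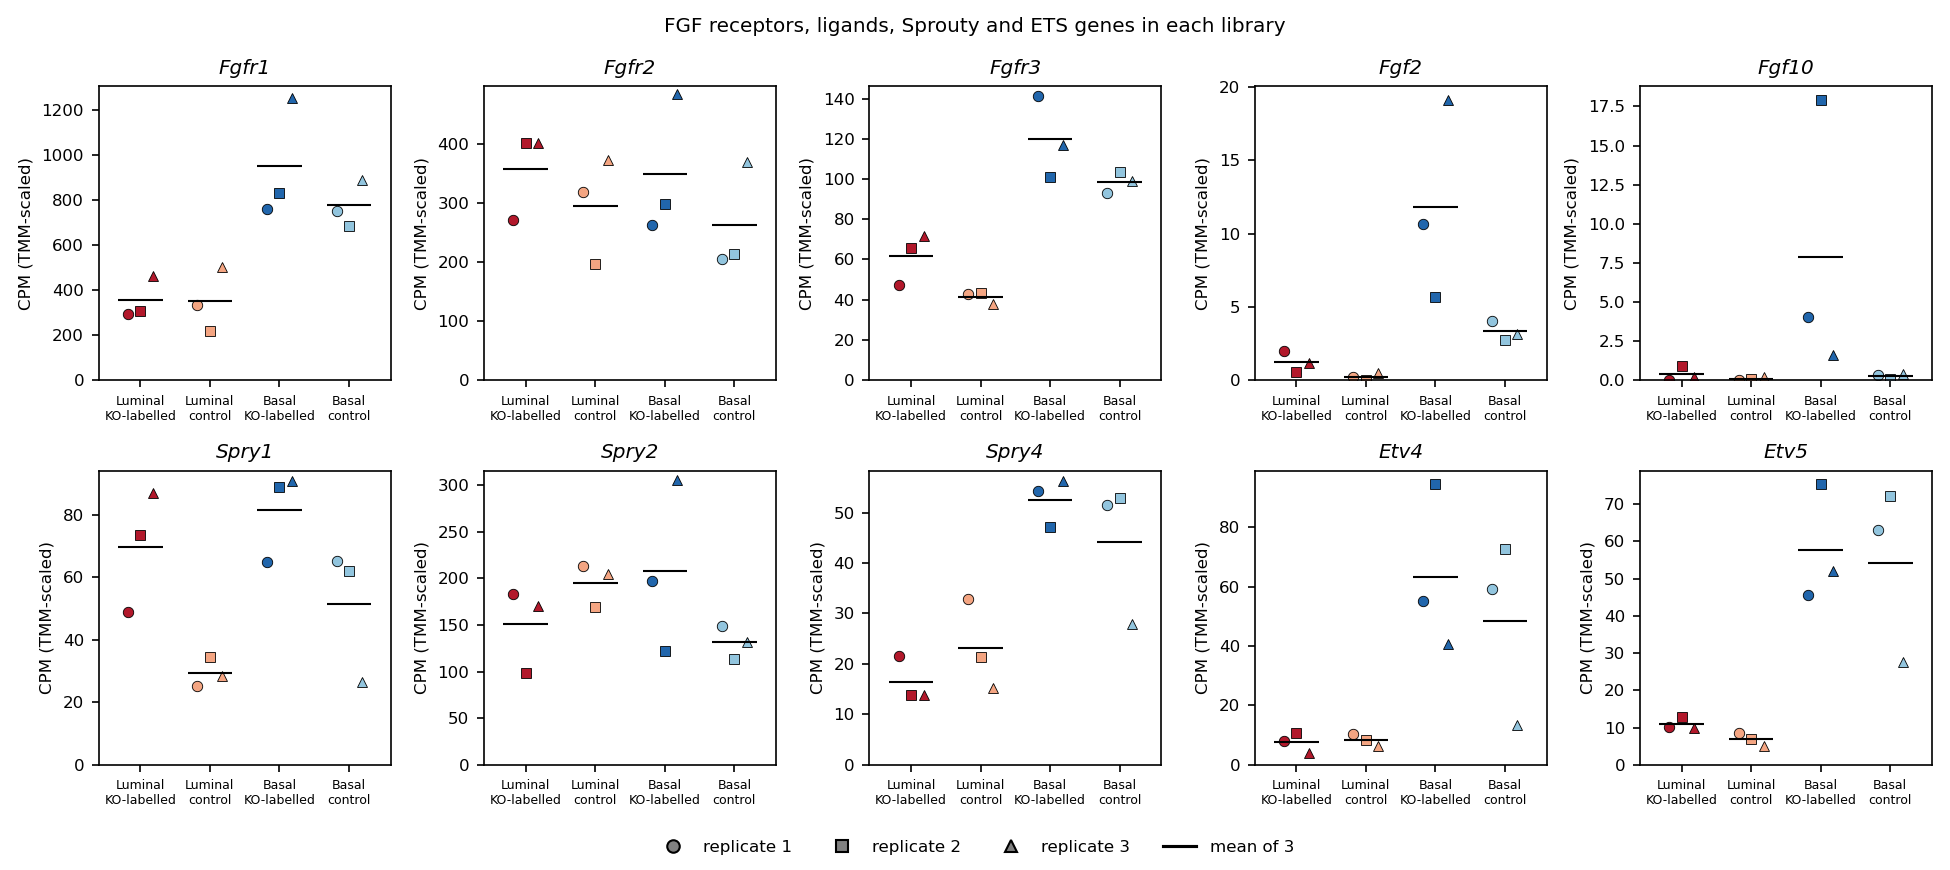
Level of each of the 10 genes (vertical axis, CPM scaled by library size and TMM factor, starting at 0) in each of the 12 libraries (horizontal axis, 4 groups), with one marker shape per replicate number and a line at the mean of 3 libraries. Etv4 and Etv5 sit lower in all 6 luminal libraries than in any basal library, and Fgf10 is highest in basal knockout-labelled replicate 2, at 17.9 CPM.

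Luminal cells were set against basal cells of the same genotype to describe where the pathway is expressed. In knockout-labelled cells, 7 of the 10 genes were lower in luminal cells and 0 higher at an adjusted p under 0.05 (edgeR quasi-likelihood test, Benjamini-Hochberg adjustment), where 21.4% of all tested genes were lower and 40.6% were called in either direction. In controls 6 of the 10 were lower and 0 higher, where 16.8% of all tested genes were lower and 33.2% were called in either direction. The 7 were Fgfr1, Fgfr3, Fgf2, Fgf10, Spry4, Etv4 and Etv5, and the 6 were the same genes without Fgf10. Fgf10 passed the filter on low counts only through the basal knockout-labelled libraries, so its call there is not separate support. The groups did not overlap for 7 genes in knockout-labelled cells and for 6 in controls, where 54.9% and 44.1% of all genes did not. The median log2 fold change over the 10 genes was -1.55 in knockout-labelled cells and -1.20 in controls, and over all tested genes it was 0.03 and 0.04.

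Among the receptors, Fgfr1 and Fgfr3 were lower in luminal cells and Fgfr2 was at about the same level in both. Fgfr1 (GRCm38 chromosome 8, 25518759 to 25575718) had 296, 306 and 462 CPM in luminal knockout-labelled replicates 1 to 3 and 334, 216 and 505 CPM in luminal controls, and it had 763, 834 and 1256 CPM in basal knockout-labelled replicates and 753, 687 and 891 CPM in basal controls. No luminal library reached any basal one. The log2 fold change of Fgfr1 between luminal and basal cells was -1.42 in knockout-labelled cells (SE 0.32, adjusted p = 0.00474) and -1.14 in controls (SE 0.32, adjusted p = 0.0179). The call in controls did not survive the removal of luminal control replicate 1 (adjusted p = 0.0601) or 2 (adjusted p = 0.0591). Fgfr3 (chromosome 5, 33721724 to 33737068) had 47.5, 65.5 and 71.5 CPM in luminal knockout-labelled and 42.8, 43.4 and 37.7 CPM in luminal control libraries, and 141, 101 and 117 CPM in basal knockout-labelled and 92.8, 104 and 99.1 CPM in basal control libraries. These groups did not overlap between the lineages either, and Fgfr3 differed by a log2 fold change of -0.96 in knockout-labelled cells (SE 0.18, adjusted p = 0.00156) and -1.25 in controls (SE 0.18, adjusted p = 0.000338). Fgfr2 (chromosome 7, 130162451 to 130266808) had 272, 402 and 402 CPM in luminal knockout-labelled and 319, 197 and 373 CPM in luminal control libraries, and 263, 300 and 485 CPM in basal knockout-labelled and 206, 214 and 370 CPM in basal control libraries. All 4 groups of Fgfr2 overlapped, with a log2 fold change between luminal and basal cells of 0.04 in knockout-labelled cells (SE 0.33, adjusted p = 0.937) and 0.17 in controls (SE 0.33, adjusted p = 0.724).

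Shares of the receptor RNA are given as a description, without a test of their own. Of the summed RPKM of the 4 receptor genes, Fgfr2 made up 44.2% ± 4.76 in luminal knockout-labelled and 41.2% ± 2.46 in luminal control libraries, and 22.6% ± 1.81 in basal knockout-labelled and 21.1% ± 3.86 in basal control libraries (SD, n = 3 each). Fgfr1 made up 46.5% ± 5.29 and 51.1% ± 4.51 in the 2 luminal groups, and 66.5% ± 1.69 and 68.1% ± 2.63 in the 2 basal groups. Per unit length, the ratio of Fgfr2 to Fgfr1 was 0.862, 1.23 and 0.814 in luminal knockout-labelled and 0.893, 0.854 and 0.692 in luminal control libraries, and 0.323, 0.337 and 0.362 in basal knockout-labelled and 0.257, 0.291 and 0.389 in basal control libraries. All 6 luminal ratios lay above all 6 basal ones. Fgfr4, the remaining receptor kinase, never exceeded 0.163% of the sum in a luminal library or 1.09% in a basal one, and was lower in luminal cells by a log2 fold change of -5.76 in knockout-labelled cells (SE 0.63, adjusted p = 4.47e-05) and -4.30 in controls (SE 0.58, adjusted p = 0.000201). Fgfrl1, a receptor-like protein that lacks the kinase domain, was also lower in luminal cells, by -2.20 in knockout-labelled cells (SE 0.24, adjusted p = 5.14e-05) and -1.85 in controls (SE 0.24, adjusted p = 0.000164), on the log2 scale.

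**Figure D2:**
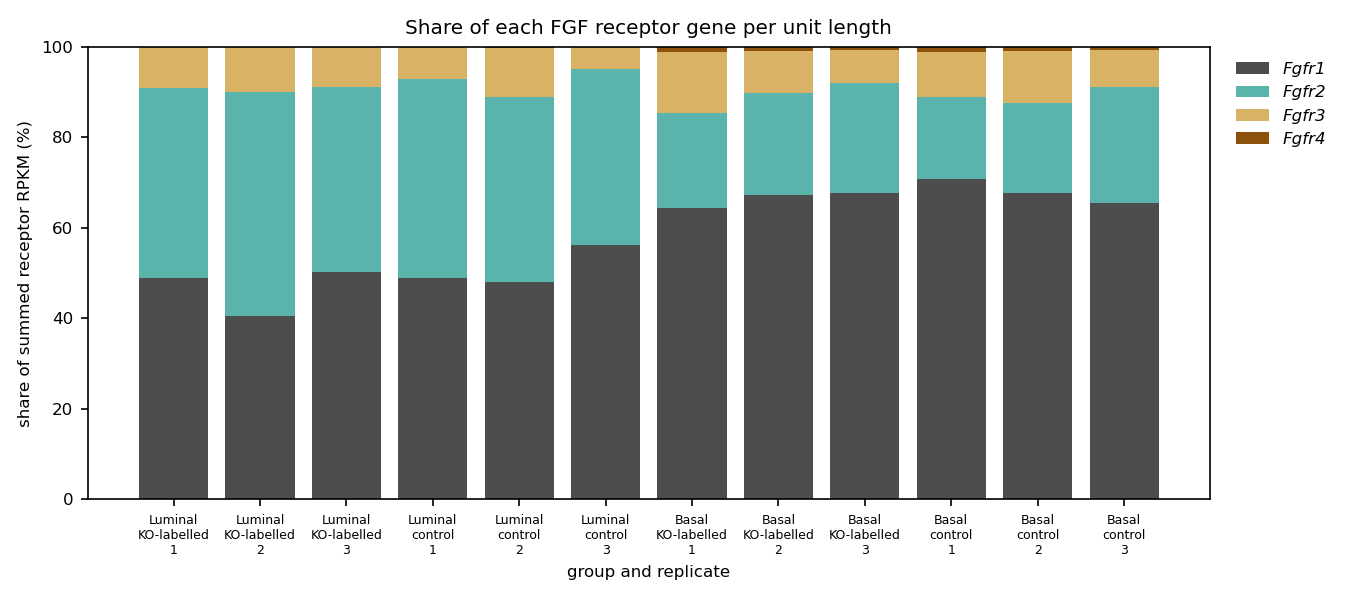
Share of the summed RPKM of Fgfr1, Fgfr2, Fgfr3 and Fgfr4 that each gene makes up (vertical axis, percent) in each of the 12 libraries (horizontal axis, by group and replicate). Fgfr2 averages 44.2% in luminal knockout-labelled and 41.2% in luminal control libraries, and 22.6% in basal knockout-labelled and 21.1% in basal control libraries.

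The ETS factor genes were both lower in luminal cells. For Etv4 the lowest basal library (control replicate 3, 13.4 CPM) lay near the highest luminal one (knockout-labelled replicate 2, 10.8 CPM). Etv4 (chromosome 11, 101769747 to 101785310) had 7.98, 10.8 and 4.07 CPM in luminal knockout-labelled and 10.5, 8.51 and 6.33 CPM in luminal control libraries, and 55.2, 94.5 and 40.5 CPM in basal knockout-labelled and 59.3, 72.5 and 13.4 CPM in basal control libraries. Etv5 (chromosome 16, 22381313 to 22439570) had 10.1, 12.7 and 9.81 CPM in luminal knockout-labelled and 8.51, 6.84 and 5.13 CPM in luminal control libraries, and 45.7, 75.4 and 52.1 CPM in basal knockout-labelled and 63.1, 72.1 and 27.7 CPM in basal control libraries. For both genes every basal library was above every luminal one. The log2 fold change of Etv4 between luminal and basal cells was -3.06 in knockout-labelled cells (SE 0.59, adjusted p = 0.00174) and -2.52 in controls (SE 0.58, adjusted p = 0.006). That of Etv5 was -2.41 in knockout-labelled cells (SE 0.35, adjusted p = 0.000292) and -2.99 in controls (SE 0.36, adjusted p = 8.92e-05).

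The Sprouty genes did not share one pattern. Spry4 (chromosome 18, 38586247 to 38601347) had 21.5, 13.9 and 13.7 CPM in luminal knockout-labelled and 32.9, 21.4 and 15.2 CPM in luminal control libraries, and 54.3, 47.2 and 56.2 CPM in basal knockout-labelled and 51.5, 52.8 and 27.9 CPM in basal control libraries. It was lower in luminal cells, by a log2 fold change of -1.68 in knockout-labelled cells (SE 0.32, adjusted p = 0.00173), without overlap, and of -0.93 in controls (SE 0.32, adjusted p = 0.0417), with overlap. The Spry4 call in controls was lost when the control groups were fitted alone (adjusted p = 0.0907) and without basal control replicate 1 (adjusted p = 0.113), basal control replicate 2 (adjusted p = 0.130), luminal control replicate 2 (adjusted p = 0.113) or luminal control replicate 3 (adjusted p = 0.108). Spry2 (chromosome 14, 105891947 to 105896819) overlapped between the lineages in knockout-labelled cells, with 183, 98.4 and 171 CPM in luminal and 198, 122 and 305 CPM in basal libraries and a log2 fold change of -0.47 (SE 0.31, adjusted p = 0.255). In controls it had 213, 169 and 204 CPM in luminal and 149, 113 and 132 CPM in basal libraries, so every luminal control was the higher. Its log2 fold change in controls was 0.58 (SE 0.31, adjusted p = 0.182), and of the settings tried only the replicate block gave a call (adjusted p = 0.0469), under which 43.8% of all tested genes were called in controls. Spry1 (chromosome 3, 37639947 to 37644599) overlapped between luminal and basal cells in both genotypes, with log2 fold changes of -0.22 in knockout-labelled cells (SE 0.32, adjusted p = 0.602) and -0.80 in controls (SE 0.32, adjusted p = 0.0768). Without basal control replicate 3 the value in controls became -1.11 (adjusted p = 0.00544), and DESeq2 called it with all libraries (adjusted p = 0.0488), where it called 32.1% of the genes it tested.

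Both ligand genes had few counts in luminal cells. Fgf2 (chromosome 3, 37348477 to 37410106) had 1.99, 0.537 and 1.13 CPM in luminal knockout-labelled and 0.187, 0 and 0.503 CPM in luminal control libraries, and 10.6, 5.64 and 19.1 CPM in basal knockout-labelled and 4.04, 2.77 and 3.14 CPM in basal control libraries. All luminal values lay below all basal ones, and the log2 fold change between luminal and basal cells was -3.27 in knockout-labelled cells (SE 0.66, adjusted p = 0.00242) and -3.81 in controls (SE 0.79, adjusted p = 0.00344). The Fgf2 locus is overlapped on the opposite strand by Nudt6, the library kit does not mark strand and the labels do not state the counting setting, so reads of the 2 genes may not be fully separated. Nudt6 had 4.74 to 5.58 CPM in luminal knockout-labelled, 3.12 to 6.20 CPM in luminal control, 13.9 to 31.3 CPM in basal knockout-labelled and 8.04 to 9.65 CPM in basal control libraries. Fgf10 (chromosome 13, 118714699 to 118792573) had 0, 10 and 3 counts in luminal knockout-labelled replicates 1 to 3 and 0, 1 and 2 counts in luminal controls, and 40, 200 and 15 counts in basal knockout-labelled replicates and 3, 1 and 4 counts in basal controls. In knockout-labelled cells the summed Fgf10 counts, scaled by library size, were 0.0426 times as high in luminal as in basal cells (exact 95% counting interval 0.0224 to 0.0742), and the test called it (log2 fold change -4.40, SE 1.06, adjusted p = 0.00651). Fgf10 was tested only because of its level in these basal libraries. In the same comparison 14 of 16 fibroblast markers were called lower in luminal cells and 0 higher, where 21.4% of all tested genes were called lower. All 16 had a negative log2 fold change, with a list median of -3.93. In controls 3 were called lower and 1 higher, where 16.8% of all tested genes were called lower. There 14 of the 16 had a negative log2 fold change, with a median of -0.94. The part of these markers in the Fgf10 result was not tested. In controls, 3 luminal and 8 basal counts gave a ratio of 0.378 (0.0645 to 1.57). The edgeR test did not call it (log2 fold change -1.31, adjusted p = 0.555), and no difference was detectable at this depth. These intervals leave out the spread between libraries.

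**Figure D3:**
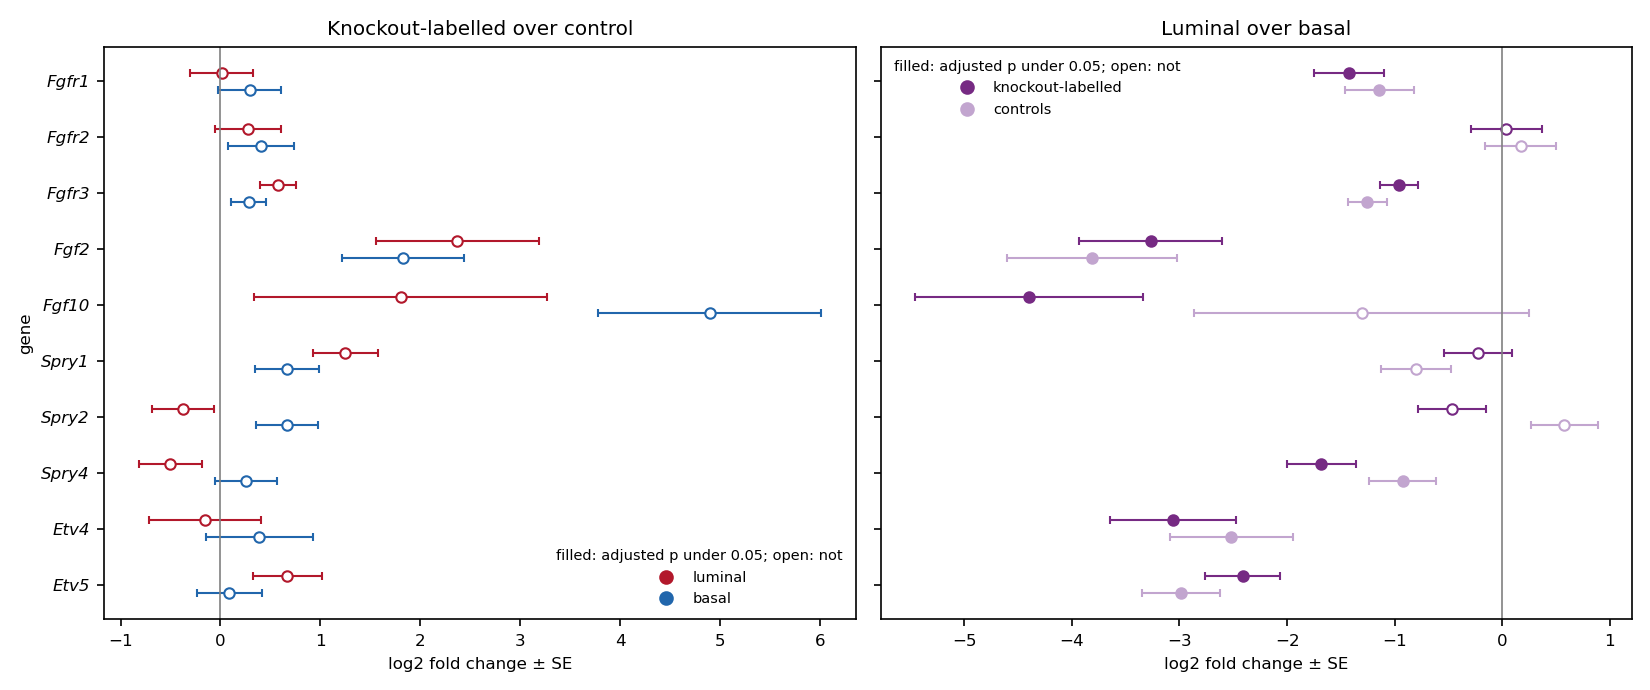
Log2 fold change with its standard error (horizontal axis) of the 10 genes (vertical axis), for knockout-labelled over control cells in luminal and basal cells (left) and for luminal over basal cells in knockout-labelled and control cells (right). Filled points have an adjusted p under 0.05: 0 of 20 on the left, and on the right 7 in knockout-labelled cells and 6 in controls, all below 0.

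The comparison of knockout-labelled with control cells asks which members differ with the loss of Foxp1 that the labels state. None of the 10 genes was called in luminal cells, where 3.03% of all tested genes were called, and none in basal cells, where 0.671% were called (edgeR quasi-likelihood test). At an unadjusted p under 0.05 there were 3 members in luminal cells, Fgfr3, Fgf2 and Spry1, where 17.2% of all genes passed, and 2 in basal cells, Fgf2 and Fgf10, where 8.88% passed. DESeq2 called 2 members in luminal cells, Fgf2 and Spry1, where it called 1093 genes or 6.64% of those it tested. It called 1 in basal cells, Fgf10, where it called 414 genes or 2.46%. The median log2 fold change over the members was 0.43 in luminal and 0.40 in basal cells, and over all genes it was -0.03 and -0.01. A replicate block raised the luminal count of called genes to 1097, or 7.36% of those tested, against 451 without it, and then called 1 member, Spry1.

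Fgf10 had the largest log2 fold change among the members in basal cells, although it was not called by the edgeR test. It passed the filter on low counts only through the basal knockout-labelled libraries, so its rise there is a description. Its 255 summed counts in basal knockout-labelled libraries and 8 in basal controls gave a ratio of 33.4 after scaling by library size (exact 95% counting interval 16.7 to 78.1), with 4.05, 17.9 and 1.63 CPM in knockout-labelled replicates 1 to 3 and 0.311, 0.0893 and 0.369 CPM in controls. Every knockout-labelled library was above every control, and the knockout-labelled libraries themselves spread widely, with replicate 2 far above the others. The log2 fold change was 4.90 (SE 1.12) and the edgeR adjusted p was 0.0872. DESeq2 called the difference (adjusted p = 0.00151), and with 1 library left out in turn the edgeR adjusted p was between 0.0734 and 0.352. In luminal cells, 13 counts in knockout-labelled and 3 in control libraries gave a ratio of 3.77 (1.03 to 20.6), with overlapping libraries and an adjusted p of 0.587. Both intervals leave out the spread between libraries, so an interval that excludes a ratio of 1 is not a call.

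Some stromal transcripts differed between the same basal groups. The summed level of 16 fibroblast markers was 2306, 3308 and 2027 CPM in basal knockout-labelled replicates 1 to 3 and 550, 543 and 724 CPM in basal controls, and 15 of the 16 had a positive log2 fold change, with a list median of 2.55. Of these 2 were called higher, where 0.671% of all tested genes were called. Only 3 of 8 adipocyte markers were tested, and all 3 had a positive log2 fold change as well, with 1 called higher and a median of 2.40. Of 8 pericyte markers, 7 were positive and 0 called, with a median of 0.94. The endothelial and leukocyte lists did not rise in this way. Of 9 endothelial markers, 5 were positive and 4 negative, with 0 called and a median of 0.17. Of 5 tested macrophage and other leukocyte markers, 1 was positive and 4 negative, with 0 called and a median of -0.23. Most of the luminal list did rise, so a rise was not limited to stromal markers. Of 12 luminal markers 9 were positive and 1 was called higher, with a median of 0.43. None of the fibroblast markers was at 0 over a group. Over the 3 basal knockout-labelled libraries, Fgf10, a ligand known from mammary stroma, ranked as the fibroblast marker sum did. Fgf10 ran from 1.63 to 17.9 CPM there, and the sum from 2027 to 3308 CPM. Fgf7, another ligand made by stroma, did not rank in that way and was highest in replicate 1. The part of RNA from these cell types in the Fgf10 result was not tested, and in bulk libraries more cells of a type and more RNA per cell cannot be told apart. By root mean square difference of centred log2 CPM over the 12 libraries, among 12165 genes, the profiles most like that of Fgf10 were those of Efemp1 (0.745), Ccdc80 (0.770), Hmcn2 (0.803) and Col5a3 (0.816), all of which encode extracellular proteins, set against an SD of Fgf10 itself of 1.996. The likeness is a description, since the 12 libraries share the same lineages and genotypes.

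**Figure D4:**
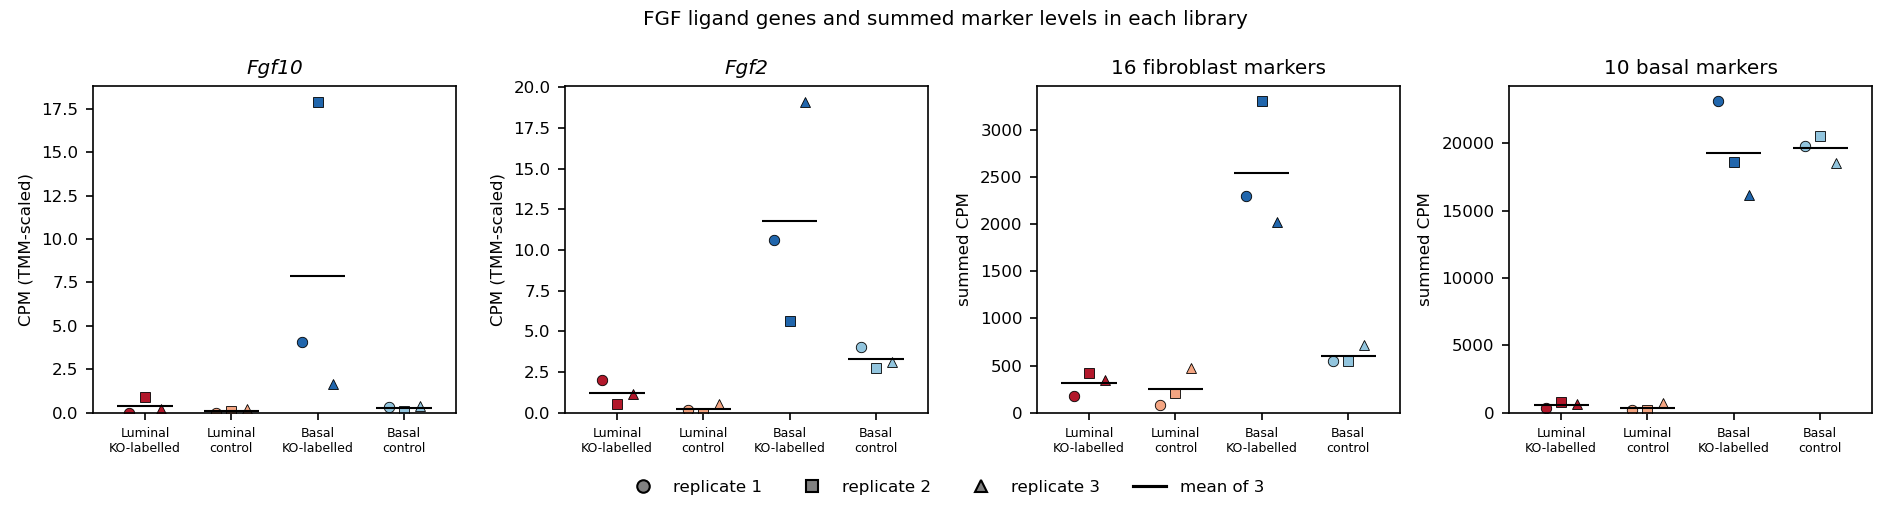
Levels of Fgf10 and Fgf2 (CPM) and summed levels of 16 fibroblast markers and 10 basal markers (summed CPM), on vertical axes that start at 0, in each library of the 4 groups (horizontal axis), with a line at the mean of 3. Basal knockout-labelled replicate 2 is highest for Fgf10 (17.9 CPM) and the fibroblast sum (3308 CPM), while Fgf2 is highest in replicate 3 (19.1 CPM).

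Fgf2 was higher in every knockout-labelled library than in any control of the same lineage, but at low levels and short of the threshold. In basal cells its means were 11.8 ± 6.81 CPM in knockout-labelled and 3.32 ± 0.656 CPM in control libraries (SD, n = 3 each), a log2 fold change of 1.83 (SE 0.61, adjusted p = 0.278). In luminal cells the summed counts were 43 in knockout-labelled and 7 in control libraries, a ratio of 5.34 (exact 95% counting interval 2.38 to 14.1), with a log2 fold change of 2.37 (SE 0.82, adjusted p = 0.155, and 0.0421 in DESeq2). Unlike Fgf10, Fgf2 was highest in basal knockout-labelled replicate 3, which had the lowest fibroblast marker sum of its group. Nudt6, on the other strand, was also higher in every basal knockout-labelled library than in any basal control, with a log2 fold change of 1.30 (SE 0.32, adjusted p = 0.115), and how far its reads enter the Fgf2 count was not tested. Of the other ligands, Fgf7, also made by stroma, had 7.60, 6.72 and 6.19 CPM in basal knockout-labelled and 3.22, 1.52 and 1.85 CPM in basal control libraries, without overlap (log2 fold change 1.64, SE 0.38, adjusted p = 0.0946, and 0.0055 in DESeq2). Fgf21, which encodes a ligand that acts as a hormone, had 1.11, 0.806 and 2.93 CPM in basal knockout-labelled and 3.94, 2.05 and 13.4 CPM in basal control libraries, with overlap (log2 fold change -2.005, SE 0.76, adjusted p = 0.392).

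Spry1 was the member nearest to the threshold in luminal cells. It had 48.8, 73.6 and 86.8 CPM in luminal knockout-labelled replicates and 25.1, 34.5 and 28.5 CPM in luminal controls, so the groups did not overlap. The log2 fold change was 1.25 (SE 0.32, adjusted p = 0.0662), with an adjusted p of 0.0499 under the replicate block, 0.00695 in DESeq2 and 0.0520 to 0.208 with 1 library left out in turn. In basal cells it had 64.9, 88.9 and 90.7 CPM in knockout-labelled and 65.1, 62.0 and 26.6 CPM in control libraries, which overlapped (log2 fold change 0.67, SE 0.32, adjusted p = 0.597). The other Sprouty genes were not called between the genotypes in either lineage. Spry2 had a log2 fold change of -0.38 in luminal cells (SE 0.31, adjusted p = 0.594) and 0.67 in basal cells (SE 0.31, adjusted p = 0.580), and Spry4 of -0.50 (SE 0.32, adjusted p = 0.463) and 0.25 (SE 0.31, adjusted p = 0.977). In luminal cells Spry2 and Spry4 were each lower in all 3 knockout-labelled libraries than in the control of the same number, with an adjusted p of 0.239 for Spry2 and 0.260 for Spry4 under the replicate block. Basal markers in luminal libraries, a sign of basal RNA, summed to 1.68%, 3.87% and 3.26% of their basal control mean in knockout-labelled replicates 1 to 3 and to 0.902%, 0.906% and 3.70% in controls, and their part in the luminal values was not tested.

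None of the receptor and ETS factor genes was called between the genotypes. Fgfr3 was higher in every luminal knockout-labelled library than in any luminal control, with means of 61.5 ± 12.5 CPM in knockout-labelled and 41.3 ± 3.11 CPM in control libraries and a log2 fold change of 0.58 (SE 0.18, adjusted p = 0.118). Its basal groups overlapped (0.28, SE 0.18, adjusted p = 0.822). Fgfr1 had log2 fold changes of 0.01 in luminal cells (SE 0.32, adjusted p = 0.992) and 0.29 in basal cells (SE 0.32, adjusted p = 0.961), and Fgfr2 of 0.28 (SE 0.33, adjusted p = 0.727) and 0.41 (SE 0.33, adjusted p = 0.914). Etv5 did not overlap between luminal groups, at 10.9 ± 1.60 CPM in knockout-labelled and 6.83 ± 1.69 CPM in control libraries, but its log2 fold change of 0.67 missed the threshold (SE 0.35, adjusted p = 0.356). In basal cells Etv5 was at 0.09 (SE 0.33, adjusted p = 0.990), and Etv4 was at -0.15 in luminal cells (SE 0.56, adjusted p = 0.928) and 0.39 in basal cells (SE 0.54, adjusted p = 0.980). In all, the groups did not overlap for 2 members in basal cells, both higher in knockout-labelled cells, where 12.4% of all genes did not overlap and 8.15% in that direction. In luminal cells they did not overlap for 4, Fgfr3, Fgf2, Spry1 and Etv5, all higher, where 25.4% of all genes did not overlap and 13.1% in that direction.

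The effect in luminal cells was then set against that in basal cells in a test of the difference itself. None of the 10 genes was called, where 0.275% of all tested genes were, and 1 member passed an unadjusted p under 0.05, where 9.84% of all genes did. That member was Spry2, whose luminal minus basal effect was -1.04 (SE 0.44, adjusted p = 0.462). Fgf10 had the widest difference between lineages, of -3.09, with an SE of 2.22 (adjusted p = 0.753). A p that misses the threshold does not show that the effects are alike.

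Libraries numbered 3 shared some features across all 4 groups. Replicate 3 was the lowest of its group in every group for Etv4 and for the immediate early gene Egr1, and the highest in every group for Fgfr1 and Fgfr2. Egr1 had 1074 CPM in luminal knockout-labelled replicate 3 where replicates 1 and 2 had 1727 and 1791 CPM, and 1273 CPM in luminal control replicate 3 where the others had 2849 and 4190 CPM. In basal cells it had 2732 CPM in knockout-labelled replicate 3 where the others had 3176 and 4085 CPM, and 1131 CPM in control replicate 3 where the others had 3569 and 4071 CPM. Etv5 and Spry4 were lowest in replicate 3 of 3 groups, the exception being basal knockout-labelled cells, and Spry1 was lowest in replicate 3 of the basal controls alone. In the basal controls replicate 3 was also the lowest for 7 of 13 other feedback and target genes, among them Egr1 and Dusp6, which encodes a phosphatase that acts on MAP kinases (477 CPM of Dusp6, with 882 and 821 CPM in replicates 1 and 2). That library was the highest for 3 of the 13, and Spry3, also among them, had no counts. In the other groups replicate 3 was the lowest for 1 of the 13 in basal knockout-labelled, 3 in luminal knockout-labelled and 4 in luminal control cells. The share over all genes was not computed, and basal control replicate 3 was singled out after its values were seen, so these counts are a description. Without basal control replicate 3 the basal log2 fold changes were -0.06 for Etv4 and -0.23 for Etv5, and none of the 10 genes was called.

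Other genes of the pathway were read from lists that do not hold the members. These lists were chosen with earlier results of these data known, so the numbers called in them are descriptions and not separate support. In luminal cells, 2 of 11 tested other ligands rose in the knockout-labelled libraries and 0 fell, where 3.03% of all tested genes were called. Both belong to the intracellular FGF homologues, which are not secreted and bind sodium channels. Fgf12 had 2.49, 10.02 and 5.34 CPM in knockout-labelled and 0.281, 0.185 and 0.101 CPM in control libraries, a log2 fold change of 4.89 (SE 0.72, adjusted p = 0.0075). Within luminal cells Fgf12 met the level of the filter on low counts only in the knockout-labelled libraries. Fgf13 had 17.5, 30.0 and 33.2 CPM in knockout-labelled and 4.77, 6.47 and 10.8 CPM in control libraries, a log2 fold change of 1.88 (SE 0.36, adjusted p = 0.0189). Their basal log2 fold changes were 0.03 for Fgf12 (adjusted p = 0.999) and -0.35 for Fgf13 (adjusted p = 0.962), and the luminal minus basal differences were 4.86 (SE 1.05, adjusted p = 0.0893) and 2.22 (SE 0.52, adjusted p = 0.104), neither past the threshold in edgeR with all libraries. DESeq2 called both differences (adjusted p = 0.00575 for Fgf12 and 0.00976 for Fgf13), where it called 2.3% of the genes it tested, and edgeR called that of Fgf13 without luminal control replicate 3 (adjusted p = 0.04997). The Fgf13 call was lost without luminal knockout-labelled replicate 2 or 3 or luminal control replicate 1 or 2 (adjusted p = 0.0742 to 0.0881) and when the luminal groups were fitted alone (adjusted p = 0.0640).

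Of 20 tested co-receptor and heparan sulphate genes, 3 rose and 1 fell in luminal knockout-labelled cells, where 3.03% of all tested genes were called. This list too was chosen with earlier results known. Flrt2, a membrane protein of a family that binds FGF receptors, had 34.2, 37.3 and 23.2 CPM in knockout-labelled and 2.06, 1.57 and 3.12 CPM in control libraries, a log2 fold change of 3.81 (SE 0.51, adjusted p = 0.00454). The glypican gene Gpc1, whose product carries heparan sulphate, had 115, 141 and 188 CPM in knockout-labelled and 38.1, 43.5 and 45.6 CPM in control libraries, a log2 fold change of 1.804 (SE 0.34, adjusted p = 0.0172). Flrt1 had a log2 fold change of 2.79 (SE 0.56, adjusted p = 0.0227). Sulf1, which encodes an enzyme that removes sulphate from heparan sulphate, had 1.20, 2.06 and 1.53 CPM in knockout-labelled and 2.99, 5.64 and 5.33 CPM in control libraries, a log2 fold change of -1.53 (SE 0.28, adjusted p = 0.0159). The calls of Gpc1, Flrt1 and Sulf1 were each lost without 2 or more of the single luminal libraries, with adjusted p up to 0.0820, 0.0954 and 0.0687, and those of Flrt1 and Sulf1 also when the luminal groups were fitted alone (adjusted p = 0.0690 and 0.105). In basal cells Flrt2 did not overlap between the groups but was not called (log2 fold change 1.37, SE 0.46, adjusted p = 0.277), and 0 of the 20 genes were.

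None of 19 adaptor and MAP kinase cascade genes and none of 12 other feedback and target genes was called with the knockout label in either lineage. The lowest p in luminal cells belonged to the adaptor gene Gab1, at -0.77 (SE 0.28, adjusted p = 0.176), and to Spred3, a relative of the Sprouty genes, at -0.72 (SE 0.24, adjusted p = 0.146). In basal cells it belonged to Cbl, which encodes a ubiquitin ligase that marks receptors for breakdown, at -0.55 (SE 0.18, adjusted p = 0.264), and to Il17rd, an inhibitor of FGF signalling, at 0.69 (SE 0.27, adjusted p = 0.412). The receptor genes outside the members were not called either, with Fgfr4 at -1.03 in luminal cells (SE 0.75, adjusted p = 0.534) and 0.43 in basal cells (SE 0.45, adjusted p = 0.961), and Fgfrl1 at -0.27 (SE 0.24, adjusted p = 0.613) and 0.08 (SE 0.23, adjusted p = 0.990).

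The same lists were read between the lineages, where 40.6% of all tested genes were called in knockout-labelled cells and 33.2% in controls. Of the 20 co-receptor and heparan sulphate genes, 1 was higher and 10 lower in luminal than in basal knockout-labelled cells, and 1 was higher and 12 lower in controls. The higher one was Sulf2 in both genotypes, while its relative Sulf1 was among the lower ones. Sulf2 had a log2 fold change of 3.08 in knockout-labelled cells (SE 0.28, adjusted p = 1.44e-05) and 3.50 in controls (SE 0.29, adjusted p = 8.6e-06), and Sulf1 of -5.30 (SE 0.29, adjusted p = 1.19e-06) and -3.95 (SE 0.27, adjusted p = 3.51e-06). Ext1, which encodes an enzyme that builds the heparan sulphate chain, was lower at -2.65 (SE 0.29, adjusted p = 4.12e-05) and -2.59 (SE 0.28, adjusted p = 4.92e-05). Of the 11 tested other ligands, 4 were higher and 5 lower in luminal knockout-labelled cells, and 3 were higher and 4 lower in luminal controls. The list holds intracellular homologues as well as secreted FGFs, so these are not counts of receptor ligands alone. The higher ones included Fgf13 (log2 fold change 3.53, adjusted p = 5.18e-05) and Fgf12 (3.77, adjusted p = 0.000995) in knockout-labelled cells. In controls they included Fgf14 (5.23, adjusted p = 0.000553) and Fgf11 (1.60, adjusted p = 0.00407). Fgf1, an FGF that binds all the receptors, was among the lower ones, with means of 39.9 ± 7.35 CPM in luminal knockout-labelled and 190 ± 55.1 CPM in basal knockout-labelled cells, and 45.1 ± 20.6 CPM in luminal control and 208 ± 26.5 CPM in basal control cells. Its log2 fold change was -2.25 in knockout-labelled cells (SE 0.35, adjusted p = 0.000441) and -2.20 in controls (SE 0.35, adjusted p = 0.000571).

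Among the 12 tested other feedback and target genes, 2 were higher and 6 lower in luminal knockout-labelled cells, and 2 were higher and 3 lower in luminal controls. Dusp4, a phosphatase that acts on MAP kinases in the nucleus, was among the higher ones, at 2.15 in knockout-labelled cells (SE 0.28, adjusted p = 0.000152) and 1.56 in controls (SE 0.28, adjusted p = 0.00127). The Sprouty-related inhibitors Spred1 and Spred2 were lower, Spred1 at -1.48 (SE 0.22, adjusted p = 0.000326) and -1.28 (SE 0.22, adjusted p = 0.000934), and Spred2 at -1.14 (SE 0.19, adjusted p = 0.000665) and -1.32 (SE 0.19, adjusted p = 0.00031). Spred3 went the other way, with 13.4 to 15.2 CPM in luminal and 4.46 to 7.39 CPM in basal knockout-labelled libraries. In controls Spred3 had 17.8 to 28.7 CPM in luminal and 8.04 to 10.4 CPM in basal libraries. Of the 19 adaptor and cascade genes, 1 was higher and 3 lower in luminal knockout-labelled cells, and 0 higher and 4 lower in luminal controls, a smaller share than the 40.6% and 33.2% of all tested genes. The higher one was Map2k2 (adjusted p = 0.049), whose call was lost in 10 of 12 alternatives. Among the lower ones in controls, the calls of Sos2, Sos1 and Ptpn11 were lost in 8, 7 and 4 of 12 alternatives. Plcg1, a phospholipase that FGF receptors bind, was lower at -1.56 in knockout-labelled cells (SE 0.29, adjusted p = 0.00159) and -1.59 in controls (SE 0.29, adjusted p = 0.00163).

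The genes whose profiles over the 12 libraries were most like those of the 2 leading receptors were read from 12164 genes, with the same measure as for Fgf10. For Fgfr1, whose own SD was 0.78 on the log2 scale, they were Pxn (root mean square difference 0.196), which encodes the focal adhesion protein paxillin, the integrin genes Itga6 (0.230) and Itgb1 (0.239), and Pawr (0.240). For Fgfr2, with an SD of 0.42, they were Zhx2 (0.146), Rhog (0.223), Zfp672 (0.237) and Nploc4 (0.242).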

How the data were processed

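RNA was measured in 12 Illumina TruSeq RNA v2 libraries, per the labels' protocols. The submitters' processing notes list CASAVA 1.8.2, featureCounts and mm10. For the aligner, annotation and strand setting nothing is given in these sources. The authors deposited whole-number counts per gene with no normalization, for 27179 genes of which 859 have no symbol, and 12 per-library tables held the same values.

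The test was that of edgeR 4.0.16, run in R 4.3.3 (robust quasi-likelihood test, TMM factors of 0.887 to 1.12, default filter by group). The 14903 tested genes held at least 99.8% of the counts of each library. The model had a mean for each of the 4 groups over all 12 libraries, which left 8 residual degrees of freedom, and the common biological coefficient of variation was 32.6%. Called means a Benjamini-Hochberg adjusted p under 0.05 over all tested genes, and each adjusted p is from this test unless another is named. A standard error is the size of the log2 fold change over the square root of F. CPM and RPKM use TMM-scaled library sizes and the deposited gene lengths. Gene counts limit the precision of Fgf2 and Fgf10, and counting intervals cover counting error only. Replicates are separate biological samples per the labels, and none agreed within sampling noise, with a chi-square per degree of freedom of at least 11.7 for each pair within a group.

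The 10 genes, the pathway and marker lists and the naming rule were chosen with earlier results of these data known. The text names all members, up to 4 called genes of each other list per comparison by lowest p, or up to 2 where none was called, and up to 4 genes most like Fgfr1, Fgfr2 and Fgf10. Nudt6, Dusp6, Egr1 and Fgf7 in some comparisons, and the per-library account of basal control replicate 3, were chosen after their values were seen. Some genes that the rule takes are given only within the counts of their list. Deviations from group means correlated between same-numbered libraries at 0.405, 0.374 and 0.626 for luminal knockout-labelled and control libraries, at 0.310, 0.439 and 0.468 for luminal and basal controls, at 0.112, 0.485 and 0.483 for luminal and basal knockout-labelled libraries, and at -0.040, 0.384 and 0.171 for basal knockout-labelled and control libraries, so the numbers were taken as pairing in all but the last. The main model nonetheless holds no replicate term, so its p values treat the libraries as unpaired. The replicate block is given as an alternative.

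On simulated data with known changes, in the basal comparison 72 of 100 genes with a 4-fold and 13 of 100 with a 2-fold change were called by the edgeR step (14720 genes, 3 false calls), with 76 and 13 in the luminal one (14730 genes, 8 false calls), and 73 and 15 in luminal against basal controls (14692 genes, 0 false calls). Alternatives were DESeq2 1.42.0, library size alone, RLE factors, no filter, the compared groups alone, a replicate block and each library left out in turn. Positions are those of RefSeq on GRCm38.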

Additional observations from a re-analysis of the deposited data

Results flagged for a closer look

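Cbl, which encodes a ubiquitin ligase that acts on activated receptors, is given because every knockout-labelled library moved one way in luminal cells and the other way in basal cells. It had 47.6, 41.8 and 45.9 CPM in luminal knockout-labelled and 39.6, 31.6 and 41.7 CPM in luminal control libraries, and 26.5, 34.6 and 36.0 CPM in basal knockout-labelled and 45.3, 41.0 and 56.1 CPM in basal control libraries. The luminal minus basal effect was 0.813 on the log2 scale, and the test of that difference did not pass the threshold (edgeR adjusted p = 0.258).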

How the results depend on the processing

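Of 647 alternative values of the 50 member fold changes, 611 kept their direction and their side of the threshold, 22 reversed, 7 lost a call and 7 gained one. Of 930 for other named genes, 864 kept both, 2 reversed, 55 lost a call and 9 gained one. The number of genes called with the knockout label in basal cells was 100, but 59 with library size alone, 414 in DESeq2, 151 with the compared groups alone, 236 with a replicate block and 17 to 122 with 1 library left out. In luminal cells it was 451, but 1093 in DESeq2, 199 with the compared groups alone, 1097 with the replicate block and 127 to 589 with 1 library left out. For the difference between the effects it was 41, but 360 in DESeq2, 106 with the replicate block and 10 to 86 with 1 library left out. Luminal against basal, the range with 1 library left out was 4765 to 5899 genes and 7 members in knockout-labelled cells, and 3533 to 5211 genes and 4 to 7 members in controls; with the replicate block 7634 and 6528 genes were called. DESeq2 called 1 member in basal and 2 in luminal cells, the replicate block 1 in luminal cells, and leaving out 1 library gave 0 members in either lineage and 0 for the difference between them. Apart from Spry1 in luminal cells and Spry2 between control lineages, the replicate block changed no call of a member. Among other ligands in basal cells, the block called Fgf7 (1.68, adjusted p = 0.0485) and Fgf21 (-1.82, adjusted p = 0.0289) between the genotypes. The Fgfr2 difference between the effects, reported as -0.13, was 0.0048 with library size alone. With 1 library left out, 10 log2 fold changes changed sign. The difference between the effects ran over -0.46 to 0.20 for Fgfr2, -0.54 to 0.11 for Fgfr1 and -0.037 to 1.74 for Fgf2. The basal effect ran over -0.056 to 0.80 for Etv4, -0.23 to 0.35 for Etv5 and -0.16 to 0.26 for Fgfrl1. The luminal effect ran over -0.24 to 0.38 for Fgfr1 and -0.50 to 0.15 for Etv4. The Fgfr2 log2 fold change between luminal and basal cells ran over -0.13 to 0.34 in knockout-labelled cells and -0.067 to 0.50 in controls. The cause was not tested. Few counts limit Fgf10 and Fgf2.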
